A study of Gallus gallus with 40 samples.

Results

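The xenobiotic and alcohol metabolism enzyme families were followed in chicken liver as all genes whose symbol in the array's gene table starts as a cytochrome P450 (CYP), flavin monooxygenase (FMO), epoxide hydrolase (EPHX), alcohol dehydrogenase (ADH), aldehyde dehydrogenase (ALDH), aldo-keto reductase (AKR), glutathione S-transferase (GST) or UDP-glycosyltransferase (UGT) gene, with AKR1D1 left out. The rule found 52 of 6428 genes with a symbol, and it used no measured value. One of them, FMOD, encodes fibromodulin, a matrix proteoglycan that matches only by its letters, and its probe had a value on 0 arrays, so 51 enzyme genes remained. Of these, 31 were measured often enough to be tested, with 43 of 80 probes.

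The study compared liver RNA of a high growth (HG) line with that of a low growth (LG) line, chickens bred in opposite directions for body weight and raised alike. RNA of both lines at 1 age was hybridised together on each of 40 spotted cDNA arrays, in the dyes Alexa 647 and Alexa 555. There were 12 arrays at 1 week, 12 at 3 weeks and 4 each at 5, 7, 9 and 11 weeks. Per the series design text, the added arrays at 1 and 3 weeks used birds of the first round again beside new birds. There is no record of which birds recur on which array, so p-values at those ages do not allow for shared birds and can be too small. All ages share 1 estimate of the spread, so p-values at 5 to 11 weeks also rest on those arrays. On the count of shared birds they can be too small as well.

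The liver clears foreign and dietary compounds in steps. P450 and flavin monooxygenases add or expose a polar group, epoxide hydrolases open reactive epoxides, alcohol and aldehyde dehydrogenases oxidise alcohols to aldehydes and on to acids, and aldo-keto reductases run the carbonyl step the other way. Transferases then attach glutathione or a sugar, which makes the product soluble enough for bile or urine. Several P450s of the same superfamily make or degrade sterols, bile acids and fatty acids instead.

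All values are line effects: the log2 of the ratio of HG to LG, after the dye effect was taken off, so that a negative value means less signal in HG. Which dye is in the numerator is not given in the sources used here. Its likely reading is Alexa 647 over Alexa 555, since the design text calls these red and green. If the ratio runs the other way, every sign below turns and the lines change places, and the direction is therefore not settled. With ratios turned by dye, the profile of 32 of 38 arrays had r above 0 with the mean effect over the remaining arrays of all ages. The lowest correlation between arrays of the same dye orientation was -0.308. Both values are the same if the ratio runs the other way, so they cannot tell which dye is in the numerator. If the authors had put HG over LG on every array before deposit, the signs of CYP2C23a, GSTA3, ADH6 and ALDH2 at 7 weeks would be positive (0.69, 0.12, 0.08 and 0.66). That reading called 3018 probes in the mean over ages, against 277 with ratios turned by dye. A ratio within an array gives no level, so no gene is set above another here, and in bulk liver fewer cells of a type and less RNA per cell cannot be told apart.

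Several arrays stood apart. Replicates 3 and 4 at 3 weeks held the same values under opposite dye labels (r = 0.9999 over 9261 spots), and both were left out, which left 38 arrays with 10 at 3 weeks. Replicate 4 at 5 weeks and replicates 1 and 2 at 3 weeks ran most against the remaining arrays (r = -0.28, -0.227 and -0.181). Replicate 7 at 3 weeks had r = -0.106, replicate 1 at 7 weeks -0.0156 and replicate 6 at 1 week -0.00486. Against the other arrays of the same age only, replicates 1 to 4 at 7 weeks had r = -0.09, -0.0327, 0.23 and 0.0331. The 7-week arrays thus agreed little among themselves. By that measure r ran between 0.118 and 0.557 at 9 weeks and between 0.166 and 0.35 at 11 weeks. Arrays differed most among themselves at 7 weeks, where the median residual SD of a probe was 0.3563, against 0.2447 with the ages pooled and 0.1228 at 11 weeks alone. The pooled spread used in the tests is thus too small at 7 weeks. For the median probe it is larger than the spread of 9 weeks alone (0.1453) and of 11 weeks alone, so pooling widens the SE at those ages. At 1 and 3 weeks alone the median residual SD was 0.1407 and 0.1285, so these many arrays lower the pooled spread.

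At 7 weeks, 5 of 43 enzyme probes, for 5 genes, passed an adjusted p of 0.05, all negative. Among all 6432 probes tested, 2.91% passed at that age. The 5 were ADH6, CYP2C23a, GSTA3, ALDH2 and ADH4. In a fit of the 7-week arrays alone, GSTA3 was the 1 enzyme gene that passed, where 0.389% of all probes did. That fit is wider for the median probe but not for GSTA3, whose SE was 0.182 there against 0.259 in the pooled fit. With the replicate number as a block, GSTA3 and ADH6 passed at 7 weeks, where 1.99% of all probes did. With only replicates 1 to 4 kept at 1 and 3 weeks, 0 enzyme genes were called at 7, 9 or 11 weeks. In that fit 53, 9 and 3 of all probes passed at those ages. At 9 weeks, CYP4B7 was the one enzyme gene called, with a positive line effect, where 0.84% of all probes passed. At 11 weeks ADH4 alone was called, negative, where 0.389% of all probes passed. No enzyme probe was called at 1, 3 or 5 weeks in limma, where 0.0155%, 0% and 0.777% of all probes passed. An unadjusted p under 0.05 was found at those ages for 0, 0 and 5 of 43 enzyme probes. Of all 6432 probes, 86, 27 and 569 had one. In the mean over ages 5 enzyme probes were called against 4.31% of all probes, 4 negative (ADH4, GSTA3, ADH6 and ALDH2) and 1 positive (GSTT1L). With the sign turned, the 7-week calls would be 5 positive and 0 negative, and the calls of the mean over ages 4 positive and 1 negative.

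**Figure D1:**
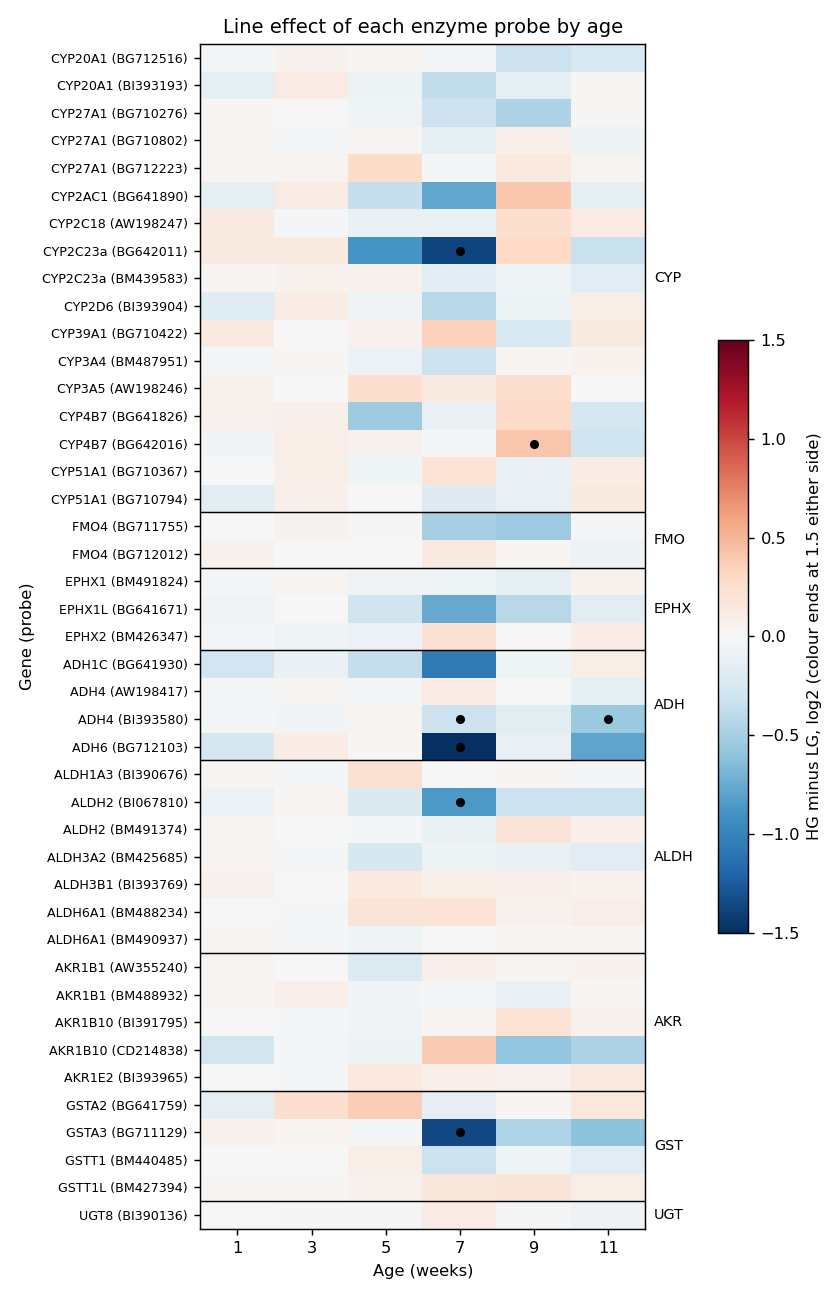
Heat map of the fitted line effect (HG minus LG, log2) of the 43 tested enzyme probes, with probes in rows by family and age in weeks in columns; black dots mark an adjusted p under 0.05. The 7-week column holds the darkest blue cells, led by ADH6 at -1.51, and the 1- and 3-week columns are pale.

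GSTA3, an alpha class glutathione S-transferase, had 7-week values of -1.14, -1.56, -1.44 and -1.29 on its 4 arrays. All 4 lie well below 0, and none overlaps the values at 1 week (lowest -0.49, median 0.09, highest 0.61 on 9 arrays). The gene is named for its call from these same 7-week values, so the lack of overlap is a description. The fitted effect was -1.36 (SE 0.259, adjusted p = 0.0011), a 2.56-fold difference. At 9 weeks the values were -0.49, -0.92, 0.26 and -0.65, and at 11 weeks -0.53, -1.08, 0.19 and -1.02. At each of those ages 3 of 4 arrays were thus negative, and neither age was called (-0.45, adjusted p = 0.5; -0.61, adjusted p = 0.94). The 5-week values (0.26, -0.43, -0.99 and 1.11) lay on both sides of 0, and at 3 weeks they ran between -0.72 and 1.42 with a median of -0.07. Its mean over ages was -0.39 (SE 0.0951, adjusted p = 0.0101), negative on 22 of 35 arrays, and was not called with the replicate number as a block (adjusted p = 0.121).

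The 7-week call of GSTA3 stayed past the threshold when each array of 5 to 11 weeks was left out in turn (adjusted p up to 0.0118) and in a fit of 7 weeks alone (adjusted p = 0.0226). It was lost when arrays were scaled to the same spread (-0.69, adjusted p = 0.396), with array weights (adjusted p = 0.949) and when only replicates 1 to 4 were kept at 1 and 3 weeks (adjusted p = 0.053).

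None of the other glutathione S-transferases was called at 7 weeks. GSTA2, a second alpha class enzyme with 2 protein-coding genes between it and GSTA3 in the RefSeq table, had -0.14 (SE 0.19) at 7 weeks and 0.37 (SE 0.19) at 5 weeks, neither called. GSTT1, a theta class enzyme, had 7-week values of -0.08, -0.26, -0.72 and -0.22, negative on every array (-0.32, adjusted p = 0.061). GSTT1L, its neighbour with 0 protein-coding genes between, ran the other way. Its 7-week values were 0.15, 0.17, 0.32 and 0.04, its 9-week values 0.11, 0.4, 0.15 and 0.12, and its 11-week values 0.17, 0.22, 0.27 and -0.23. These are small but mostly on 1 side, and the mean over ages was 0.09 (SE 0.0282, adjusted p = 0.0468, positive on 26 of 38 arrays), the weakest of the calls. It passed in 4 of 16 fits that each left out 1 array, with adjusted p up to 0.113.

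Among the alcohol dehydrogenases, all 3 genes and all 4 probes had a negative mean over ages. ADH6 had 7-week values of -0.85, -2.62, -2.27 and -0.32, all negative but spread over more than 2 log2 units, with a fitted effect of -1.51 (SE 0.317, adjusted p = 0.003), a 2.85-fold difference and the largest of any enzyme probe. At 11 weeks its values were -0.33, -0.93, -0.91 and -0.97, again all negative, yet not called (-0.79, adjusted p = 0.81). At 5 weeks (0.17, -1.07, -1.02 and 1.98) and 9 weeks (-0.29, 0.2, -0.77 and 0.42) the arrays lay on both sides of 0. At 1 week they ran between -0.97 and 0.48 with a median of -0.31, and at 3 weeks between -0.32 and 0.87 with a median of 0.09. The mean over ages was -0.42 (SE 0.115, adjusted p = 0.0256, negative on 25 of 38 arrays), and it passed in 11 of 16 fits that each left out 1 array. Without replicate 2 or replicate 3 at 7 weeks, the 7-week call was lost (-1.13, adjusted p = 0.0599, and -1.25, adjusted p = 0.0637).

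ADH4, the gene next to ADH6 in the RefSeq table and in humans a class II alcohol dehydrogenase of liver, was called at 2 ages with 1 of its 2 probes. The probe BI393580 read -0.36, -0.49, -0.76 and -0.61 at 11 weeks, negative on every array and below all of its values at 3 weeks (lowest -0.22, highest 0.09). This probe is named for calls made from these same values, so the lack of overlap at 11 weeks is a description. Its fitted effect there was -0.56 (SE 0.0896, adjusted p = 0.000412), a 1.47-fold difference, and it stayed past the threshold in each of the 16 fits that left out 1 array (adjusted p up to 0.0171). At 7 weeks it read -0.6, -0.31, -0.42 and 0.06 (-0.32, adjusted p = 0.0395), at 9 weeks -0.29, -0.1, -0.47 and 0.19, and at 5 weeks 0.03, -0.08, 0.12 and 0.09. The line effects of the 6 ages differed (F = 7.38, adjusted p = 0.0101), where 1.57% of all probes passed that test. That difference was not called without replicate 3 at 11 weeks (adjusted p = 0.0658) or with the replicate number as a block (adjusted p = 0.0639). The other ADH4 probe, AW198417, had 0.12 (SE 0.09) at 7 weeks and -0.15 (SE 0.09) at 11 weeks, with 11-week values of -0.04, -0.13, -0.21 and -0.23. Its 11-week arrays were also all negative, at smaller size, and neither age was called.

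The 11-week call of ADH4 was lost in a fit of 11 weeks alone (adjusted p = 0.135) and with only replicates 1 to 4 at 1 and 3 weeks (adjusted p = 0.133). The 7-week call was lost without replicate 1, 2 or 3 of that age (adjusted p = 0.202, 0.075 and 0.213) and with the replicate number as a block (adjusted p = 0.076), and the mean of both probes at 7 weeks was -0.1.

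ADH1C, a class I alcohol dehydrogenase of the kind that oxidises ethanol in mammals, had 7-week values of 0.65, -2.33, -1.49 and -1.09. Replicate 1 was positive and the others lay far below 0, and the fitted effect of -1.06 (SE 0.34) was not called (adjusted p = 0.088). At 5 weeks its values were 0.61, -2.33, -0.28 and 0.55, and at 9 and 11 weeks the effects were -0.06 and 0.09.

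ALDH2, the mitochondrial aldehyde dehydrogenase that removes acetaldehyde in mammals, showed the same array pattern with the probe BI067810. It read 0.8, -1.46, -1.88 and -0.91 at 7 weeks, positive on replicate 1 and negative on the others (-0.86, SE 0.236, adjusted p = 0.0331). At 9 weeks it read -0.92, 0.55, -0.39 and -0.51, and at 11 weeks -0.25, -0.61, -0.08 and -0.33, so that the 11-week arrays were all negative at an effect of -0.32 that was not called. At 5 weeks it read -0.02, -0.84, -0.34 and 0.32, with medians of -0.19 at 1 week (-0.44 to 0.35) and 0.04 at 3 weeks (-0.31 to 0.39). The mean over ages was -0.30 (SE 0.0856, adjusted p = 0.0383, negative on 26 of 38 arrays). A second ALDH2 probe, BM491374, had -0.10 (SE 0.11) at 7 weeks and 0.03 in the mean over ages. The 7-week call was lost without replicate 2, 3 or 4 of that age (adjusted p = 0.17, 0.474 and 0.0997), and the call of the mean over ages passed in 5 of 16 fits that left out 1 array. With the replicate number as a block neither passed (adjusted p = 0.123 at 7 weeks and 0.141 in the mean).

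None of the other aldehyde dehydrogenases was called. ALDH1A3, which makes retinoic acid from retinal, had its smallest p at 5 weeks, with values of 0.1, 0.69, 0.25 and -0.14 (0.23, adjusted p = 0.37). ALDH6A1, an enzyme of valine breakdown, had 0.09 and -0.00 with its probes in the mean over ages, and ALDH3A2, the fatty aldehyde dehydrogenase, -0.09. ALDH3B1 stayed between -0.01 and 0.15 at the 6 ages.

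Among the 11 P450 genes tested, 8 had a negative gene mean at 7 weeks, and 14 of 17 probes were negative, with a median of -0.13. Over all probes the median at 7 weeks was 0.03 and 39.8% were negative. CYP2C23a, a chicken member of the CYP2C subfamily of drug and fatty acid oxidases, was the one called there. Its probe BG642011 read 0.1, -2.52, -1.73 and -1.38 at 7 weeks, near 0 on replicate 1 and far below on the others (-1.38, SE 0.368, adjusted p = 0.0278, 2.61-fold). At 5 weeks it read -1.75, -1.31, -2.04 and 1.58, so that 3 arrays agreed at a large size and replicate 4 had the opposite sign (-0.88, adjusted p = 0.43). At 9 weeks the values were -0.35, 0.57, 0.37 and 0.59, and at 11 weeks 0.47, -0.09, -0.09 and -1.63, neither called. At 1 week the arrays ran between -0.56 and 1.29 with a median of 0.09, and at 3 weeks between -0.26 and 1.01. A second probe, BM439583, had -0.38, -0.79, 0.49 and 0.02 at 7 weeks (effect -0.17, SE 0.13) and was not called at any age. The call was lost without replicate 2, 3 or 4 at 7 weeks (adjusted p = 0.176, 0.157 and 0.0846), and with the replicate number as a block (adjusted p = 0.0647).

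CYP4B7 belongs to the CYP4 family, whose members hydroxylate fatty acids. The probe BG642016 read 0.18, 0.44, 0.38 and 0.65 at 9 weeks and -0.18, -0.27, -0.35 and -0.39 at 11 weeks. All 4 arrays were thus positive at the first age and all 4 negative at the next, with no overlap. The probe is named for calls made from these same values, so the lack of overlap is a description. The 9-week effect was 0.41 (SE 0.0908, adjusted p = 0.0126, 1.33-fold), the 11-week effect -0.30 (adjusted p = 0.31), and the effects of the 6 ages differed (F = 6.96, adjusted p = 0.0147). At 5 weeks it read -0.34, 0.23, 0.16 and 0.19, at 7 weeks -0.11, 0.35, -0.2 and -0.15, and the medians were -0.01 at 1 week (-0.36 to 0.17) and 0.11 at 3 weeks (-0.01 to 0.29). The second CYP4B7 probe, BG641826, read 0.16, 0.14, 0.48 and 0.36 at 9 weeks and 0.08, -0.7, -0.28 and -0.17 at 11 weeks, with the same sign of its effects at both ages (0.29 and -0.27) and no call. The 9-week call was lost without replicate 2, 3 or 4 of that age (adjusted p = 0.0516, 0.0507 and 0.325), and the difference between ages without replicate 4 (adjusted p = 0.0772). With all 40 arrays neither passed (adjusted p = 0.0655 and 0.096), nor with the replicate number as a block (adjusted p = 0.0895 and 0.0508).

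**Figure D2:**
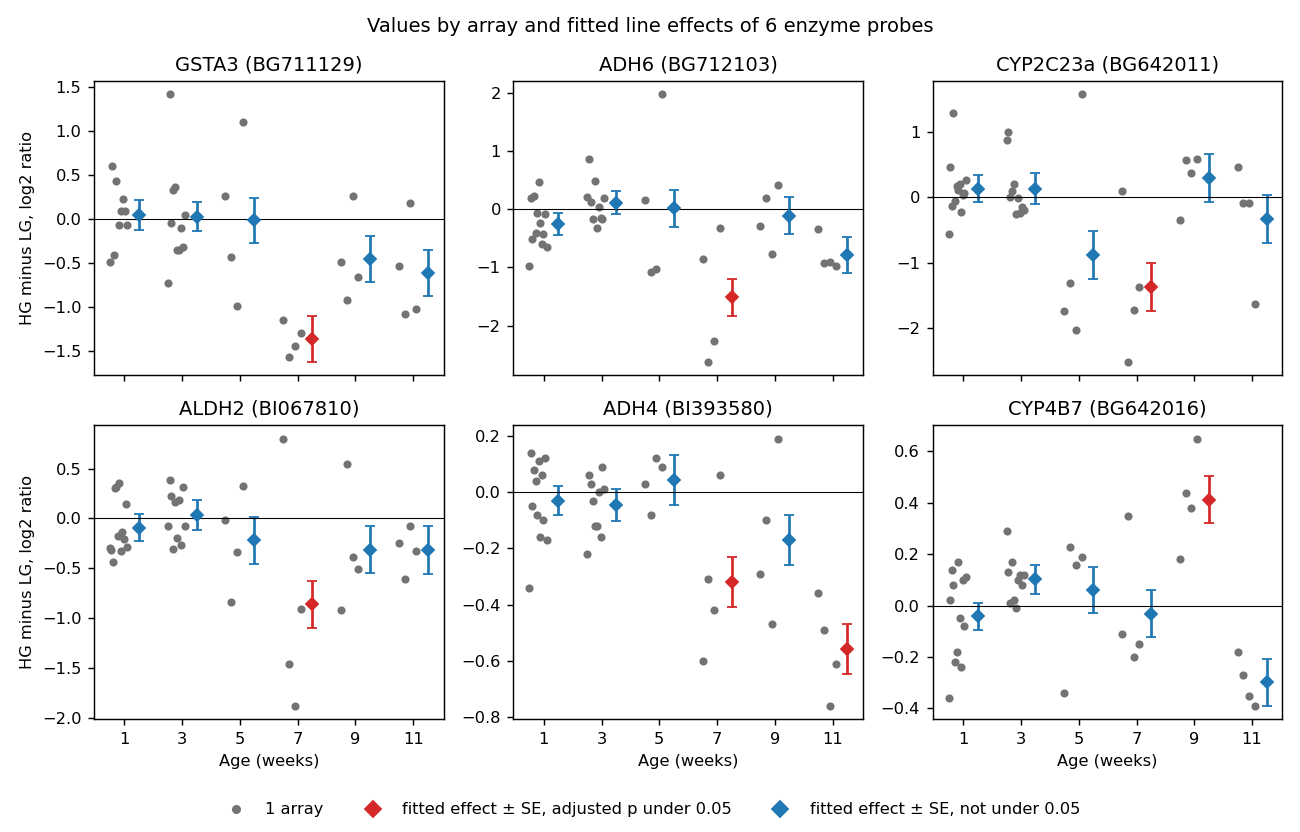
Line values (HG minus LG, log2) of 6 enzyme probes by age in weeks; grey points are single arrays after the dye effect was taken off, and diamonds are fitted effects ± SE, red where the adjusted p is under 0.05. GSTA3 sits between -1.56 and -1.14 on all 4 arrays at 7 weeks, while CYP2C23a and ALDH2 each have 1 array above 0 at that age.

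The remaining P450s were not called. CYP2AC1, a CYP2 family member, read 0.42, -1.33, -1.24 and -1 at 7 weeks (-0.78, adjusted p = 0.099) and -1.06, -0.79, -0.92 and 1.39 at 5 weeks. It was thus positive on the same arrays as CYP2C23a, replicate 1 at 7 weeks and replicate 4 at 5 weeks. CYP3A4, of the P450 subfamily that oxidises many drugs, had -0.31 at 7 weeks (adjusted p = 0.18), and CYP3A5, its neighbour with 0 protein-coding genes between, had 0.13 at that age and 0.12 in the mean over ages (adjusted p = 0.12). CYP2D6 had -0.41 at 7 weeks (adjusted p = 0.49), CYP2C18 between -0.12 and 0.24 over the ages. None of the sterol enzymes was called. CYP27A1, the mitochondrial sterol 27-hydroxylase of bile acid synthesis, had -0.31, -0.13 and -0.01 with its 3 probes at 7 weeks and -0.47 with the first of them at 9 weeks (adjusted p = 0.3). Its 9-week values of -0.76, -0.22, -0.26 and -0.63 were all negative, and with array weights it was called (-0.54, adjusted p = 0.000445), where 15.9% of all probes were. CYP39A1, an oxysterol hydroxylase, had 0.34 at 7 weeks (adjusted p = 0.5). CYP51A1, the lanosterol demethylase of cholesterol synthesis, had -0.20 and 0.20 with its probes at 7 weeks. CYP20A1, whose substrate is not established, had -0.33 with 1 probe at 9 weeks (adjusted p = 0.28) and -0.13 with the other.

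FMO4, the one flavin monooxygenase measured, had a probe with 7-week values of -0.27, -1.15, -0.69 and 0.11 and 9-week values of -0.91, -0.04, -0.56 and -0.64. Its effects were -0.50 (adjusted p = 0.08) and -0.54 (adjusted p = 0.12), with a mean over ages of -0.17 (adjusted p = 0.092), just outside the threshold. The second FMO4 probe had 0.14 at 7 weeks and 0.03 at 9 weeks. EPHX1L, a relative of the microsomal epoxide hydrolase, read 0.39, -1.6, -1.59 and -0.24 at 7 weeks (-0.76, adjusted p = 0.17), with a mean over ages of -0.28 (adjusted p = 0.12). EPHX1 itself, the microsomal enzyme, had -0.06 (SE 0.12) at 7 weeks, and EPHX2, the soluble enzyme that opens fatty acid epoxides, had 0.22 (adjusted p = 0.34).

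Aldo-keto reductases and the glycosyltransferase gave no call. AKR1B1, aldose reductase, had 0.07 and -0.02 with its probes at 7 weeks. AKR1B10, which reduces retinal and other aldehydes in humans, had 0.38 with 1 probe at 7 weeks and -0.58 at 9 weeks (adjusted p = 0.42), and 0.03 and 0.20 with the other. AKR1E2 had 0.07 in the mean over ages (adjusted p = 0.3). UGT8, the transferase of galactolipid synthesis and the one UGT gene tested, stayed between -0.08 and 0.12 at the 6 ages. In these families 0 of 6 probes were called in any comparison, where between 0% and 4.31% of all probes were. A count of 0 among so few probes lies near those shares.

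Call and size did not coincide at 7 weeks: ADH4 was called at -0.32, and some larger effects were not called. At 7 weeks 7 enzyme probes had an effect beyond 0.75 either way (ADH6, CYP2C23a, GSTA3, ADH1C, ALDH2, CYP2AC1 and EPHX1L), all negative and 16.3% of the 43. Over all probes 121 lay beyond that size, 1.88%, of which 78 were negative. These 7 enzyme probes also varied widely between arrays. Their residual SD ran between 0.449 (ALDH2) and 0.707 (CYP2C23a), against a median of 0.2447 over all probes. A cutoff on size alone does not allow for this, so the 2 shares are not like for like. On single 7-week arrays the median of these 7 probes was 0.39 on replicate 1 and -1.6, -1.59 and -1 on replicates 2, 3 and 4. On replicate 1 only 2 of the 7 were negative, GSTA3 and ADH6, while all 7 were negative on replicates 2, 3 and 4. At 5 weeks their medians were 0.17, -1.07, -0.92 and 1.11, with 0 of 7 negative on replicate 4. At 9 weeks they ran between -0.37 and 0.23, at 11 weeks between -0.55 and -0.04, at 1 week between -0.49 and 0.3 and at 3 weeks between -0.32 and 0.58. These probes were chosen by their size at 7 weeks, so their sign and size there are a description.

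The number of enzyme genes called at 7 weeks depended on which array of that age was kept. It was 8 without replicate 1, 3 without replicate 2, 1 without replicate 3 and 5 without replicate 4, where 370, 236, 133 and 167 probes were called in all. Of these enzyme genes 8, 2, 1 and 4 were negative, so the calls without replicate 2 or replicate 4 were not all negative. Replicate 1 is the array on which most of the large enzyme probes were positive, so more negative calls without it are a description. At 5 weeks 0 enzyme genes were called without replicate 1, 2 or 3. Leaving out replicate 4 at 5 weeks gave 7 enzyme genes at 5 weeks, where 946 probes (14.7%) were called in all. CYP2C23a (-1.73), CYP2AC1 (-0.94), CYP4B7 (-0.88) and ALDH3A2 (-0.69) were negative, and ALDH6A1 (0.45), ALDH1A3 (0.35) and AKR1E2 (0.31) positive. The count at 5 weeks, 7 of 43 probes, lies close to the 14.7% of all probes. Without that array the mean over ages held 13 enzyme genes, 9 of them negative, where 9.87% of all probes were called. Replicate 4 ran against the remaining arrays in these same data, so more calls without it are a description.

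Of 11 genes with several probes, 4 had probes of opposite sign at 7 weeks (ADH4, AKR1B1, CYP51A1 and FMO4). A called probe in some comparison was found for 4 (ADH4, ALDH2, CYP2C23a and CYP4B7), and in 0 of these was every probe called. GSTA3, ADH6 and GSTT1L each had a single tested probe. A spotted cDNA can also bind transcripts of close relatives, and the files do not show how far the ADH, GST or CYP probes did so.

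**Figure D3:**
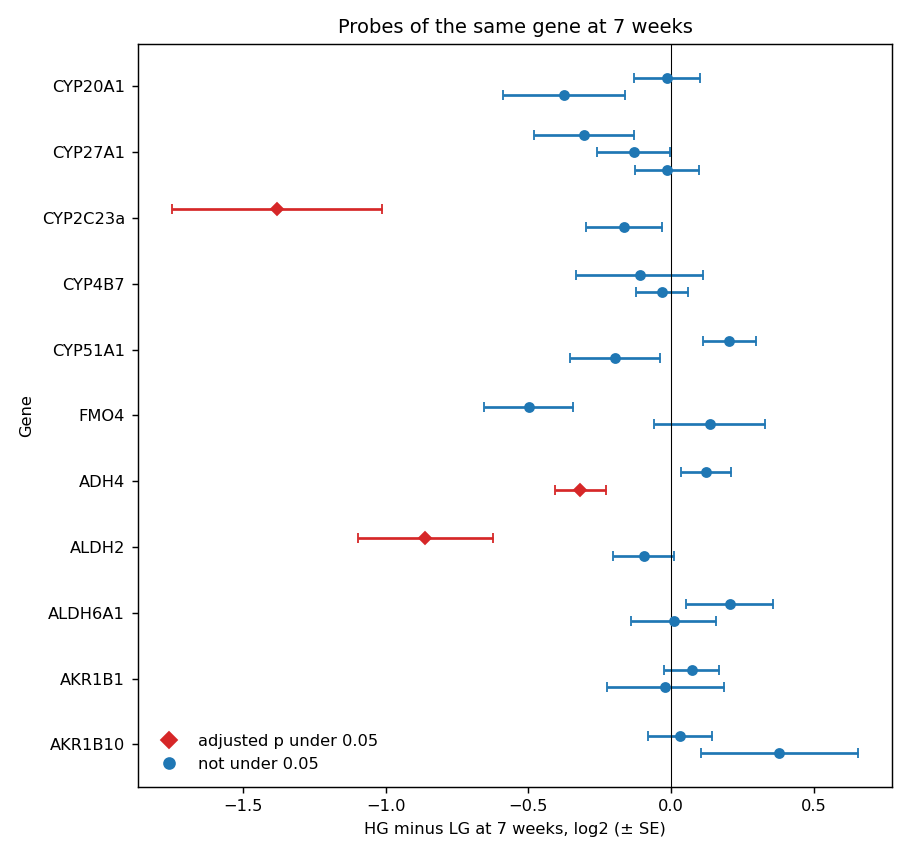
Fitted line effect at 7 weeks (HG minus LG, log2, ± SE) of each probe of the 11 enzyme genes with several tested probes, with genes down the page; red diamonds have an adjusted p under 0.05. CYP2C23a (-1.38 and -0.17), ALDH2 (-0.86 and -0.10) and ADH4 (-0.32 and 0.12) each have 1 called probe and 1 near 0.

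Whether the enzymes' line effects depended on age was also asked as the mean of 5 to 11 weeks minus the mean of 1 and 3 weeks. An unadjusted p under 0.05 in limma was found for 8 of the 43 probes and for 552 of all 6432 probes. After adjustment none of the 43 passed, against 1.15% of all probes. GSTA3 (-0.65, adjusted p = 0.0699) and ADH4 (-0.21, adjusted p = 0.0738) came closest. Without replicate 4 at 5 weeks 4 were called, all negative: CYP2C23a (-0.92), GSTA3 (-0.74), ADH6 (-0.70) and ADH4 (-0.22). In that fit 197 of all probes (3.06%) were called. The array left out ran against the remaining arrays in these same data, so more negative calls without it are a description.

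Of 34 regulators and electron donors of drug metabolism, 10 were measured and 1, CEBPB, was called at 7 weeks, negative, with 1 of the list's 15 probes (6.67%). CEBPB, a transcription factor of liver genes, had -1.13 (SE 0.177, adjusted p = 5.01e-05) with a probe that read -0.85, -1.19, -1.24 and -1.23, and its other probe read 0.98, 0.17, 0.32 and 0.08. The gene median of the list was -0.07 at 7 weeks, against 0.03 over all genes tested. Of 53 genes of conjugation, glutathione supply and transport, 21 were measured and 3 were called at 7 weeks, with 3 of 27 probes (11.1%), against 2.91% of all probes. A sulfotransferase listed as SULT had -2.32 (SE 0.332, adjusted p = 1.63e-05) and values of -1.78, -2.48, -3.09 and -1.93, negative on every array as for GSTA3. It was also called at 9 weeks (-2.39) and 11 weeks (-1.77). A second sulfotransferase, SULT1C3, had -0.99 (adjusted p = 0.0356) and read 0.19, -1.07, -2.19 and -0.89, positive on replicate 1. Catalase (CAT), which breaks down hydrogen peroxide, was positive with the called probe (0.99, adjusted p = 0.00109). Its other probe was not called and read 0.35, -0.01, 0.24 and -0.44, on both sides of 0. The list's gene median was 0.02, with 13 of 27 probes negative. Both lists were chosen with earlier results of these data known, so their shares of calls are a description.

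Markers of cell types moved at 7 weeks too. Of 14 hepatocyte markers 13 were measured and 4 genes were called there with 6 of 20 probes (30%), against 2.91% of all probes. Of these, 4 were positive (fibrinogen chains FGA and FGB, transferrin TF) and 2 were negative (transthyretin TTR). Their gene median was 0.05, with array medians of 0.74, -0.74, 0.02 and 0.16 on replicates 1 to 4, so replicate 1 was also the highest array for these. Of 3 erythroid markers measured of 14, hemoglobin HBBA was called, positive (0.86, adjusted p = 1.63e-05), and it read 0.06, 1.01, 1.35 and 1.01 on replicates 1 to 4. Over the 3 erythroid markers the effects ran between -0.01 and 0.86 with a median of 0.33. Their array medians were -0.04, 0.71, 1.35 and 0.27 on replicates 1 to 4. HBBA was singled out by its call. Its value near 0 on replicate 1, where 5 of the 7 large enzyme probes were positive, is therefore a description. Among 8 leukocyte markers measured of 21, CTSS was called, positive, with 1 of its probes (0.35), and 0 of 10 matrix and vessel and 0 of 2 bile duct markers were called. These marker lists were also chosen with earlier results of these data known, so their shares of calls are a description. The part of these markers in the enzyme values was not tested.

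**Figure D4:**
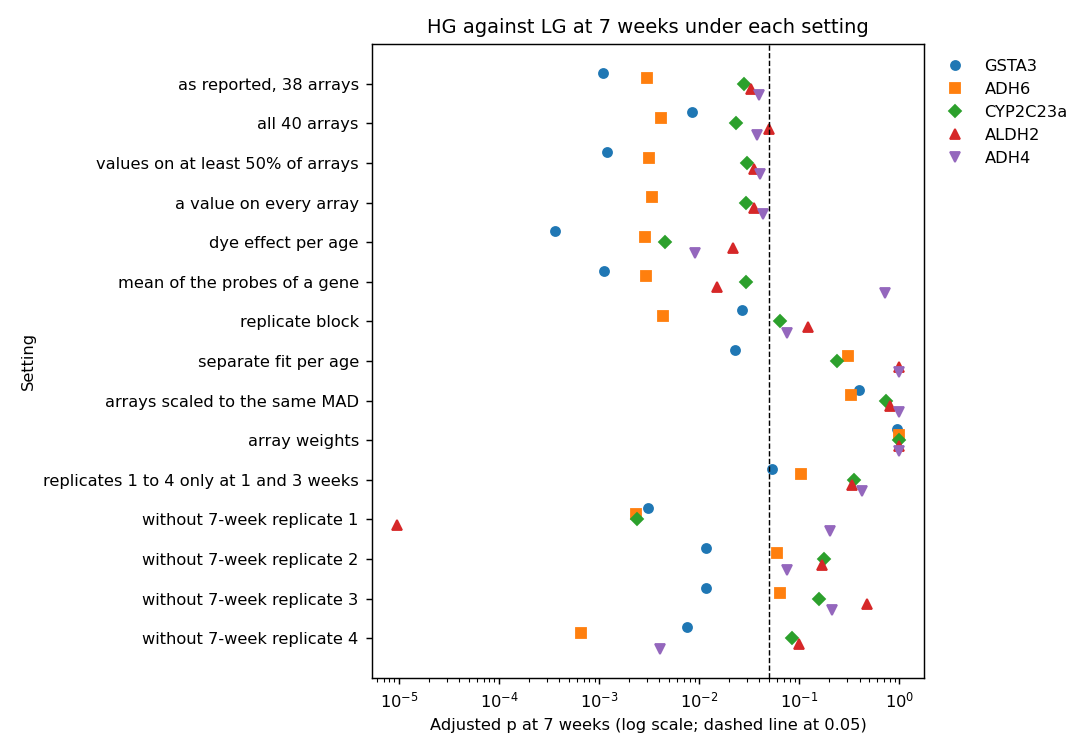
Adjusted p of the 5 enzyme genes called at 7 weeks (log axis, dashed line at 0.05) under 15 settings, which run down the page. GSTA3 lies left of the line in the fit of 7 weeks alone (0.0226) and in each fit without 1 of the 7-week arrays, and no gene lies left of it when arrays were scaled to the same spread or weighted.

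The other 20 enzyme genes were not tested because too few arrays had a value. They were CYP1A1, CYP2J19, CYP2J22, CYP2J23, CYP2R1, CYP2W1, CYP4V2, CYP17A1, CYP46A1, AKR1A1, AKR7A2, ALDH3B2, ALDH4A1, ALDH7A1, ALDH8A1, ALDH9A1, ALDH18A1, GSTK1, GSTO2 and UGT2A1, with values on 0 to 33 arrays. A looser filter added 4 of them (AKR1A1, ALDH7A1, CYP2J23 and CYP46A1), and 0 of these were called in any comparison. With that filter at most 325 of all 7618 probes were called in a comparison, so 0 lies near that share. ALDH7A1, an aldehyde dehydrogenase of lysine breakdown, had the largest value among the 4 added genes, -0.57 (SE 0.227, adjusted p = 0.238) at 7 weeks. CYP1A4, CYP1A5, CYP2H1, ALDH1A1 and UGT1A1 were looked for by symbol and were not among the 52 genes found. The array's gene table thus holds no probe under these symbols.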

How the data were processed

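The authors deposited, for every spot, a linear ratio of 1 dye over the other, with array medians between 0.966 and 1.015, so the values were taken as already normalized. How they were normalized and scanned is not given in the sources used here. An array had values for 7291 to 13434 of its 19200 spots, and the number of arrays limits the precision. Spots of 1 accession were averaged on the log2 scale, and 6432 probes with values on 75% or more of the arrays at each age were tested. Symbols came from the platform annotation, and names and neighbours from the RefSeq table of the assembly GRCg7b, in which 50 of 51 enzyme genes were found. No coordinates are given.

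Line effects were fitted with limma 3.58.1 in R 4.3.3 (lmFit, eBayes), with a line effect per age turned by dye and 1 dye effect, and tables were made with Python 3 and pandas. Tests were two-sided with Benjamini-Hochberg adjustment over all probes within a comparison. The fit was planned on all 40 arrays. It was run on 38 after 2 arrays at 3 weeks proved to hold the same values, and the settings with those arrays were chosen after seeing the data. The fit was tested on simulated data with known changes.

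The members, lists, tests and alternatives were chosen with earlier results of these data known. Named genes are members called in any comparison, members whose probes disagree, and a short list looked up in any case. Up to 3 more per family were named by smallest p in the mean over ages, and up to 3 at any age. The short list held usual drug-metabolism genes and also GSTA3, CYP2C23a and CYP4B7, which were called in these data. Of 50 pairs of arrays with the same replicate number at different ages, 31 had r above 0.1 in their deviations from the age means. Every pair did so for 3 of 10 pairs of ages (5, 7 and 9 weeks, each with 11 weeks), so the block was kept as an alternative. Both lines lie on every array, and arrays at 1 and 3 weeks that share birds were not blocked, since the labels do not name them.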

Additional observations from a re-analysis of the deposited data

Results flagged for a closer look

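For the 7 probes called in any comparison, 36 age groups of 4 to 10 arrays were searched for an array far from the rest, and 5 held one, where chance gives about 1 in 20 groups. GSTA3 read 1.42 on replicate 2 at 3 weeks, against -0.72 to 0.37 on the other arrays. ADH6 read -0.33 on replicate 1 at 11 weeks, against -0.97 to -0.91 on the others. CYP4B7 read -0.34 on replicate 1 at 5 weeks (others 0.16 to 0.23) and 0.35 on replicate 2 at 7 weeks (others -0.2 to -0.11). GSTT1L read 0.4 on replicate 2 at 9 weeks, against 0.11 to 0.15 on the others. The line effects of the 6 ages differed in limma's F test for CYP4B7 (adjusted p = 0.0147) and ADH4 (adjusted p = 0.0101), each with 1 of 2 probes.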

How the results depend on the processing

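Counts are of enzyme genes called. Leaving out 1 array of 5 to 11 weeks at a time gave 0 to 7 at 5 weeks, 1 to 8 at 7 weeks, 0 to 1 at 9 weeks and 1 at 11 weeks. It gave 2 to 13 in the mean over ages, 0 to 4 in late minus early and 1 to 6 in the F test. Of all 6432 probes, 14 to 946, 133 to 370, 23 to 77 and 11 to 30 were called at 5, 7, 9 and 11 weeks. The mean held 216 to 635 of all probes, late minus early 52 to 197 and the F test 82 to 269. Of 224 values of the called genes in these fits 180 stayed past the threshold and 0 reversed. For a call at a single age, leaving out an array of another age left the effect unchanged. CYP2C23a at 7 weeks, for one, stayed at -1.38 without replicate 1 at 5 weeks. Such fits say little about how stable a call is, so the total is no measure of stability. Without replicate 2 at 9 weeks the 1 enzyme gene called at that age was negative. It was not CYP4B7, whose positive call was lost in that fit. Scaling arrays to the same median absolute deviation gave 0 at 7 weeks, 2 in the mean, both negative, and 1 in the F test. With that scaling 11, 164 and 25 of all probes were called. A separate fit per age gave 1, 0 and 0 at 7, 9 and 11 weeks, where 25, 2 and 5 of all probes were called. Array weights gave 0 at 7 weeks and 12 at 9 weeks (9 of 13 probes negative, where 1023 of all 6432 probes, 15.9%, were called). They gave 1 in late minus early and 4 in the F test. At 7 weeks, in late minus early and in the F test, 8, 121 and 213 of all probes were called with weights. A dye effect per age gave 9 and 2 at 7 and 9 weeks, 2 in late minus early and 4 in the F test. In that fit 376 (5.85%), 226, 130 and 207 of all probes were called, against 187, 54, 74 and 101 with 1 dye effect. With the replicate block there were 2 at 7 weeks, 0 at 9 weeks, 3 in the mean and 0 in the F test. Of all probes, 128, 28, 174 and 33 were called with the block. In 25 of 48 comparisons of an array with another age, at 5 to 11 weeks, the best match had its own number. Only replicates 1 to 4 at 1 and 3 weeks gave 0 at 7, 9 and 11 weeks, in the mean and in the F test. With those arrays 53, 9, 3, 24 and 0 of all probes were called. The mean of a gene's probes gave 0 at 9 weeks and 0 in the F test, where 50 and 80 of 5754 genes or unnamed probes were called. A value on every array gave 3 in the mean, where 159 of 4139 probes were called. Leaving out the 3 most contrary arrays (replicates 1 and 2 at 3 weeks, replicate 4 at 5 weeks) gave 7 at 5 weeks and 8 at 7 weeks. It gave 14 in the mean, 4 in late minus early and 6 in the F test. In these fits 950, 256, 678, 169 and 247 of all probes were called. The 3 arrays were picked by their direction in these same data, so these counts are a description. All 40 arrays gave 0 at 9 weeks, 1 in late minus early and 1 in the F test, where 52, 76 and 98 of all probes were called. With only replicate 4 at 3 weeks kept there was 1 in late minus early, where 82 of all probes were called. Keeping only replicate 3 gave 1 in the F test, where 93 of all probes were called.

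Ratios not turned by dye gave 5, 3, 13, 11, 6 and 7 at 1 to 11 weeks, 12 in the mean, 5 in late minus early and 13 in the F test. Of all probes, 1250, 626, 3088, 2272, 594 and 1034 were called at 1 to 11 weeks. The mean held 3018, late minus early 1281 and the F test 3349 of all probes. At single ages and in the mean, ratios not turned count a dye effect shared by all arrays as a line effect. Ratios not turned reversed CYP2C23a (0.69), GSTA3 (0.12), ADH6 (0.08) and ALDH2 (0.66) at 7 weeks. In the mean they reversed ADH6 (0.1), ALDH2 (0.4) and GSTT1L (-0.01). Except where the changed spread or the smaller number of arrays is the alternative itself, the cause was not tested. With 4 arrays at 5 to 11 weeks, the median SE of a probe was about 0.12. Differences of that size were not detectable, and clearly larger ones could be missed too. GSTT1 at 7 weeks, for one, was not called at -0.32 with an SE of 0.0952.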
